A study of Homo sapiens with 3 samples.

Results

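The teneurin genes TENM2, TENM3 and TENM4 were examined in a map of the RNA targets of CSTF2tau. This protein is part of the cleavage stimulation factor and recognises U- and GU-rich RNA next to the sites where the 3' ends of mRNAs are cut. The data came from the human neuroblastoma cell line BE(2)-C, of wild-type genotype, with no treatment named. In sCLIP, ultraviolet light joins protein and RNA before the cells are lysed, the RNA is trimmed, and the pieces that come down with an antibody, here anti-CSTF2tau, are sequenced. The design was 1 group of 3 biological replicates with no control library used here, so each value is set against the other replicates or against other genes of the same list. The members were chosen by gene ID, and the family was picked with the shares of reads of many gene IDs already known, so the levels below are a description and carry no test.

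Of 3 teneurin gene IDs, 2 had listed peaks. ENSG00000218336 (TENM3) and ENSG00000149256 (TENM4) together had 704 of the 202310 listed peaks, and were 2 of the 13356 gene IDs listed. The 704 peaks were 309 in replicate 1, 141 in replicate 2 and 254 in replicate 3. No peak in any of the 3 lists carried ENSG00000145934 (TENM2). The lists hold only peaks of at least 3 reads, and the highest of the authors' p-values in them, from a caller not given, was 0.0491. Peaks of at least 3 reads may thus be left out as well, so the absence of TENM2 sets no upper limit on reads that were not listed. Whether RNA of TENM2 was listed under another gene ID was not analysed here. The lists of replicates 1, 2 and 3 held 736059, 108434 and 387784 reads in all, where the reads of a peak are the last number in its deposited name.

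Teneurins are large transmembrane proteins of neurons with a short part inside the cell and a long extracellular part of EGF-like repeats, a beta-propeller and a shell of tyrosine-aspartate repeats. Across the synapse they bind latrophilins, adhesion G-protein-coupled receptors, and they guide which neurons connect. TENM3 is known for matching partners in visual and hippocampal circuits, TENM4 for axon guidance and for the maturation of myelinating oligodendrocytes, and TENM2 as a ligand of latrophilins at synapses. All 3 genes are long, and most of the sequence of their primary transcripts is intronic.

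TENM3 was among the most heavily recovered gene IDs of the whole series. It had 2124 reads in 263 peaks in replicate 1, 819 reads in 116 peaks in replicate 2, and 984 reads in 153 peaks in replicate 3. By reads it ranked at 19 among the 11152 gene IDs of replicate 1, at 4 among 5173 in replicate 2 and at 13 among 10788 in replicate 3. Replicate 2, the smallest list, gave TENM3 the largest share. The shares of listed reads were 0.289% (exact 95% interval 0.276 to 0.301%), 0.755% (0.705 to 0.809%) and 0.254% (0.238 to 0.270%) in replicates 1, 2 and 3. The mean was 0.433% ± 0.280 (SD, n = 3), or 0.271% without replicate 2. The intervals cover counting error only, since reads in a list may stem from the same molecule, and the 2.98-fold range between replicates was far wider than any of them.

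TENM4 was recovered at a lower level, and its order of replicates was different. It had 242 reads in 46 peaks in replicate 1, 127 reads in 25 peaks in replicate 2 and 559 reads in 101 peaks in replicate 3. Its rank was 553, 126 and 49. Replicate 1 was low here although its list was the largest: the shares were 0.0329% (exact 95% interval 0.0289 to 0.0373%), 0.117% (0.0976 to 0.139%) and 0.144% (0.132 to 0.157%). The mean was 0.0981% ± 0.0580 (SD, n = 3), with a 4.38-fold range.

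**Figure D1:**
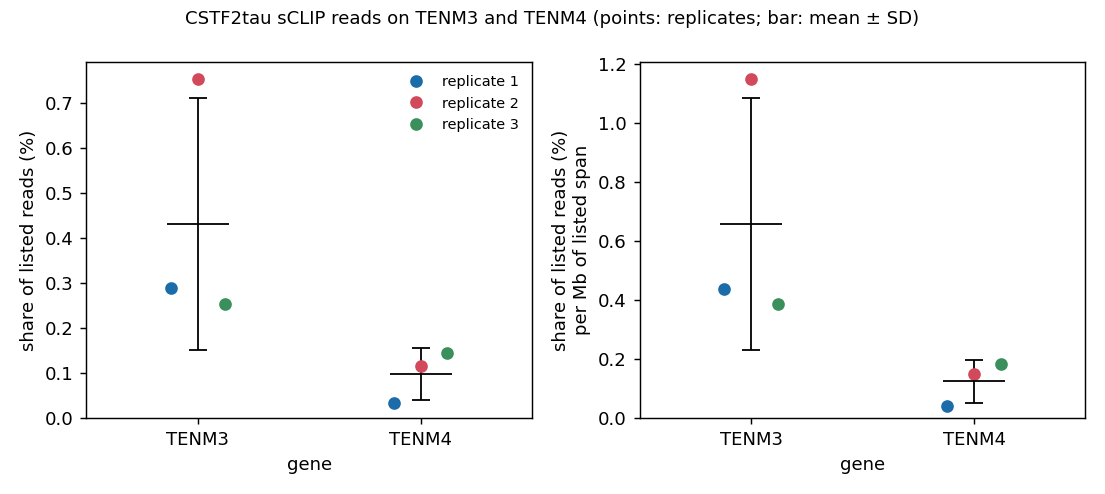
Share of listed reads in percent (left) and the same share per Mb of listed span (right) for TENM3 and TENM4; points are replicates, and bars are the mean ± SD over 3 replicates. TENM3 lay above TENM4 in each replicate, and replicate 2 (0.755%) stood apart from replicates 1 and 3 (0.289% and 0.254%) for TENM3.

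The listed span, from the first to the last listed peak over all replicates, served to set the levels of both genes per length. On hg19 the span of TENM3 was chr4:183066281-183722504 on the plus strand, 656 kb long, and that of TENM4 was chr11:78364170-79148352 on the minus strand, 784 kb long. Per Mb of span, TENM3 held 0.440%, 1.15% and 0.387% of the listed reads in replicates 1, 2 and 3. Its mean density was 0.659% ± 0.427 per Mb (SD, n = 3), and 0.413% with replicate 2 left out. Without replicate 1 the listed span of TENM3 shortened to 397 kb, and the mean density was then 1.27% per Mb. TENM4 held 0.0419%, 0.149% and 0.184% per Mb, with a mean density of 0.125% ± 0.0740. TENM3 was denser than TENM4 by 10.5-fold in replicate 1, 7.71-fold in replicate 2 and 2.10-fold in replicate 3. The direction was thus shared by the 3 replicates, while the size of the difference was not.

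Long gene IDs give the nearest comparison. Among 136 gene IDs with at least 5 loci and a listed span of at least 500 kb, the median mean share was 0.0314% and the median density 0.0463% per Mb. TENM3 was exceeded by 5 of them in share and by 5 in density. TENM4 was exceeded by 29 in share and by 31 in density. Among all 7095 gene IDs with at least 5 loci, most of them shorter, the median share was 0.00562% and the median density 0.135% per Mb. Of these, 6 exceeded TENM3 in share and 709 in density, and 105 and 3769 exceeded TENM4, so TENM4 was denser than the middle of the long gene IDs and slightly below the middle of all.

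The strand composition of the lists differed in replicate 3. Reads on the plus strand, the strand of TENM3, made up 51.2%, 49.4% and 36.8% of nuclear reads in replicates 1, 2 and 3. Reads on the minus strand, that of TENM4, made up 48.8%, 50.6% and 63.2%. As a share of the reads on its own strand, TENM3 had 0.566%, 1.57% and 0.696%, and TENM4 had 0.0676%, 0.238% and 0.230%. The order of replicates 1 and 3 for TENM3 thus turned with the denominator, and so did that of replicates 2 and 3 for TENM4. TENM3 stayed highest in replicate 2 and TENM4 lowest in replicate 1 by both. The part of the strand composition in the differences between replicates was not tested. No peak on the opposite strand was listed within either span in any replicate.

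The reads of TENM3 lay mainly in the 5' part of its span in every replicate. The first 10% of the span, 65.6 kb, held 892 of the 2124 reads of replicate 1 (42.0%, exact 95% interval 39.9 to 44.1%). Replicate 2 had 550 of its 819 reads there (67.2%, 63.8 to 70.4%), and replicate 3 had 461 of 984 (46.8%, 43.7 to 50.02%). All 3 replicates were high there, and replicate 2 was highest. The mean was 52.0% ± 13.3 (SD, n = 3). Counted from the 5' end of the span, 50% of the reads had been reached at 84.9, 61.5 and 78.1 kb. The 3' 50% of the span held 211, 6 and 56 reads, which are 9.93%, 0.733% and 5.69%. Without replicate 1, whose peaks alone set the 3' end of the span, the first 10% of the shorter span held 24.7%.

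Within TENM3 the peaks were described as a dense 5' block and a weaker block downstream. Limits of 150 kb for the first block, and of 170 and 400 kb for the next, were set after the peaks had been seen. The first 150 kb held 141, 87 and 84 peaks with 57.2%, 81.2% and 58.6% of the reads. Between 140.7 and 178.2 kb replicate 1 had no listed peak, and replicate 2 had none between 145.0 and 179.6 kb. The largest gap of replicate 3 in that stretch was shorter, from 142.2 to 158.9 kb. In replicate 1 this gap of 37.5 kb was longer than any inside the downstream block. In replicates 2 and 3 gaps of like size also lay inside that block, so there the stretch between the blocks did not stand out by its gap alone. Replicate 2 had no listed peak between 321.5 and 361.5 kb, and replicate 3 had none between 343.0 and 360.1 kb. The block from 170 to 400 kb held 107, 29 and 68 peaks with 39.0%, 18.8% and 41.1% of the reads. Replicates 1 and 3 thus divided their reads between the blocks alike, and replicate 2 had a larger part in the first. The stretch from 30 to 40% of the span, inside the downstream block, stood above that from 20 to 30% in replicates 1 and 3, with 16.6% against 6.59% and 20.5% against 7.62%. In replicate 2 the order was the opposite, 7.08% against 9.52%.

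**Figure D2:**
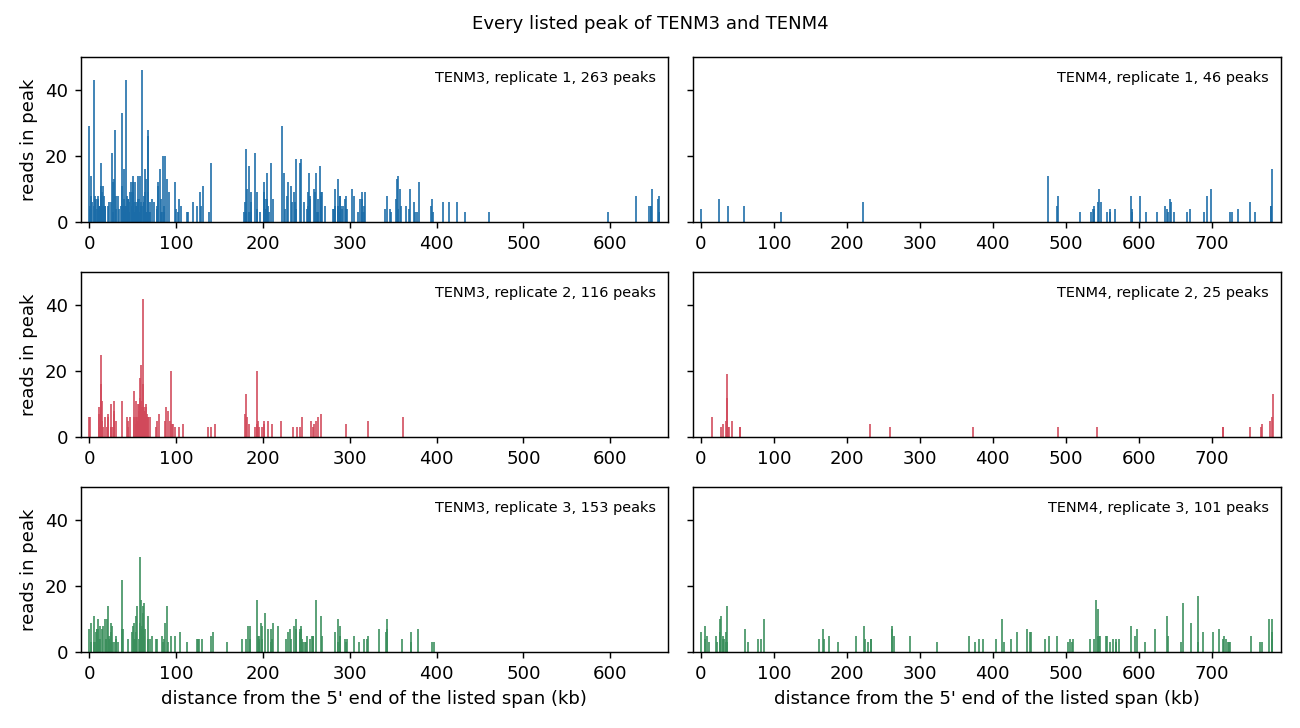
Every listed peak of TENM3 (left, 263, 116 and 153 peaks in replicates 1, 2 and 3) and TENM4 (right, 46, 25 and 101 peaks); the horizontal axis is the distance in kb from the 5' end of the listed span and the height is the reads in the peak. TENM3 has peaks in the first 150 kb and again from 170 kb in each replicate, limits that were set after the peaks had been seen. Most loci (overlapping peaks joined) of both genes were found in 1 replicate only, 321 of 409 for TENM3 and 153 of 162 for TENM4.

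The 3' end of TENM3 was seen in 1 library. The last 10% of its span, chr4:183664335-183722504, held 10 peaks with 57 reads in replicate 1, the highest with 10 reads, and no listed peak in replicates 2 and 3. The last listed peaks of replicates 2 and 3 lay 362 and 397 kb from the 5' end. The stretch from 80 to 90% of the span held no listed peak in any replicate. An annotated 3' end was not used here, so the distance of these 10 peaks from it is not given.

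TENM4 reads were divided along the span differently in each replicate. The last 10% held 18.6%, 31.5% and 13.1% of them in replicates 1, 2 and 3, above the 10% of an even spread in each. The 2 sides of the span were unlike between replicates. In replicate 1 the 3' 50% of its span held 212 of 242 reads (87.6%, exact 95% interval 82.8 to 91.5%). In replicate 2 it held 46 of 127 (36.2%, 27.9 to 45.2%), and in replicate 3 it held 332 of 559 (59.4%, 55.2 to 63.5%). The intervals of the 3 replicates did not overlap. From the 5' end, 50% of the reads had been reached at 590, 42.9 and 477 kb.

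Each replicate had its own shape on TENM4. Replicate 2 was recovered at both ends: the first and last 10% together held 87.4% of its reads, against 27.3% and 33.5% in replicates 1 and 3. Replicate 1 was recovered between 60 and 90% of the span, with 167 of 242 reads (69.0%), against 6 of 127 reads (4.72%) in replicate 2 and 213 of 559 (38.1%) in replicate 3. Replicate 1 had no listed peak between 221.8 and 475.4 kb, while the stretch from 30 to 60% of the span held 90 reads (16.1%) in replicate 3. Replicate 3 was spread over the whole span, and its largest gap was 76.1 kb, against 253.6 kb in replicate 1 and 176.9 kb in replicate 2. With 127 reads, replicate 2 could list few peaks on TENM4, and its empty stretches do not show that RNA was not bound there. The version number of the TENM4 gene ID was 1 in replicate 1 and 10 in replicates 2 and 3. The part of this in the share, profile and shared loci of replicate 1 was not tested.

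**Figure D3:**
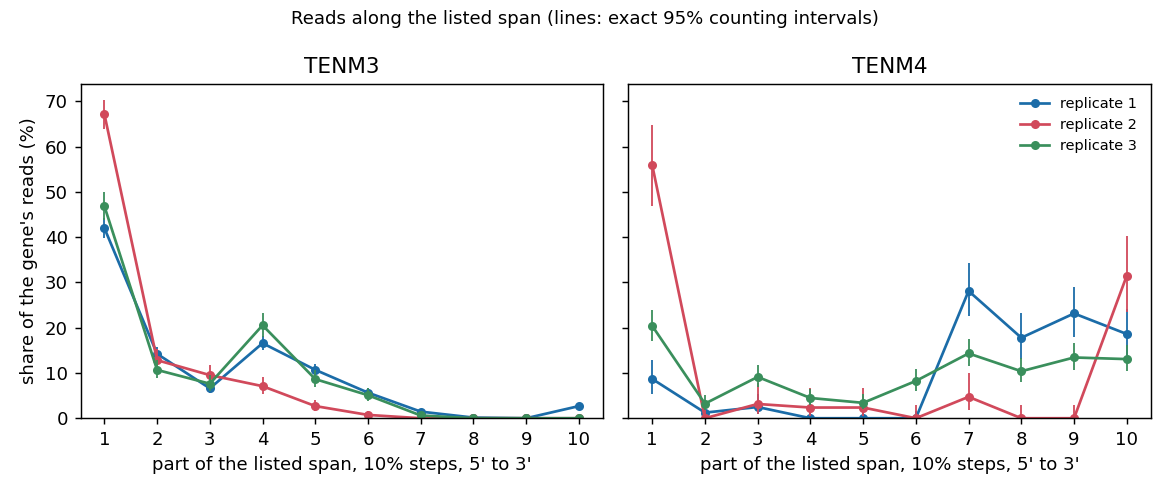
Percent of the reads of TENM3 (left) and TENM4 (right) in each 10% step of the listed span, from 5' to 3'; points are replicates and vertical lines are exact 95% counting intervals. The first step held 42.0 to 67.2% of TENM3 reads and 8.68 to 55.9% of TENM4 reads, and each step past 60% of the span held at most 2.68% of TENM3 reads.

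The ends of the span were then compared across all gene IDs. Reads in the last 10% were set against reads in the first 10% for 6382 gene IDs, with an exact two-sided binomial test and Benjamini-Hochberg adjustment over all of them, and a call needed an adjusted p below 0.05 and no replicate pointing the other way. Of the gene IDs tested, 14.1% were called at the 5' end and 18.1% at the 3' end. TENM3 was 1 of those called at the 5' end, and TENM4 was not called at either end. Among the 132 tested gene IDs with a span of at least 500 kb, 54.5% were called at the 5' end and 13.6% at the 3' end, so a call at the 5' end was common for a gene ID of this length.

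TENM3 had 1903 reads in the first 10% and 57 in the last 10%, a log2 ratio of last over first of -5.05 with 0.5 reads added to each. The replicates had 892 against 57, 550 against 0 and 461 against 0 reads. Peaks of replicate 1 alone set the last 10%, since the last peaks of replicates 2 and 3 lay at 362 and 397 kb. The 0 reads and the direction of replicates 2 and 3 thus follow from how the span was defined. Without replicate 1, in the shorter span, the log2 ratio was -3.78. Among the long gene IDs the median log2 ratio over all 3 replicates was -1.93, and 11 had a lower one than the -5.05 of TENM3. Reads of 1 peak are not independent, so peaks were also counted in place of reads: 231 peaks lay in the first 10% and 10 in the last. The log2 ratio was then -4.46 (adjusted p = 3.8e-53 by the exact binomial test, over 1684 gene IDs, of which 13.4% were called at the 5' end). The 231 peaks pool 102, 67 and 62 of replicates 1, 2 and 3, and a locus found in several replicates counts once in each. Peaks are thus not independent either, and the p-value does not measure the spread between the 3 replicates. The test covers counting only, in a gene whose lean to the 5' end was in view when it was run.

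TENM4 had 206 reads in the first 10% and 158 in the last, a log2 ratio of -0.38. Replicate 1 had more reads at the 3' end, 45 against 21, and replicates 2 and 3 had more at the 5' end, 71 against 40 and 114 against 73. The exact binomial test gave an adjusted p of 0.032, but the replicates differed in direction. With 1 replicate left out, the same exact binomial test over summed reads gave a log2 ratio of -0.71 and a call at the 5' end without replicate 1 (adjusted p = 0.00025), -0.19 without replicate 2 (adjusted p = 0.45) and -0.11 without replicate 3 (adjusted p = 0.76). With peaks counted in place of reads, 36 against 31, the log2 ratio was -0.21 (adjusted p = 0.78 by the exact binomial test). With the outer 20% of the span the ratio turned to 0.35.

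Set beside 92 long gene IDs with reads in all 3 replicates, TENM3 lay far to the 5' side over all replicates, and TENM4 was near the middle in the first 10% and high in the 3' part. The mean share of reads in the first 10% was 52.0% for TENM3 and 28.3% ± 24.6 (SD, n = 3) for TENM4, or 14.5% for TENM4 without replicate 2, against a median of 24.0% and quartiles of 9.79 and 34.3%. In the first 10%, 7 of the 92 exceeded TENM3 and 38 exceeded TENM4. The place of TENM3 rests on the span set by replicate 1: without that replicate its first 10% held 24.7%, close to the median of the 92 in the spans of all replicates. The 3' 50% held a mean of 5.45% ± 4.61 of the reads of TENM3 and 61.1% ± 25.7 of those of TENM4, against a median of 26.2%, and 86 and 17 of the 92 exceeded them. The value of TENM3 in the 3' 50% depends on the same span, and was not computed without replicate 1. In the last 10%, TENM4 had a mean of 21.1% ± 9.46, exceeded by 9 of the 92, and TENM3 had 0.895%.

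**Figure D4:**
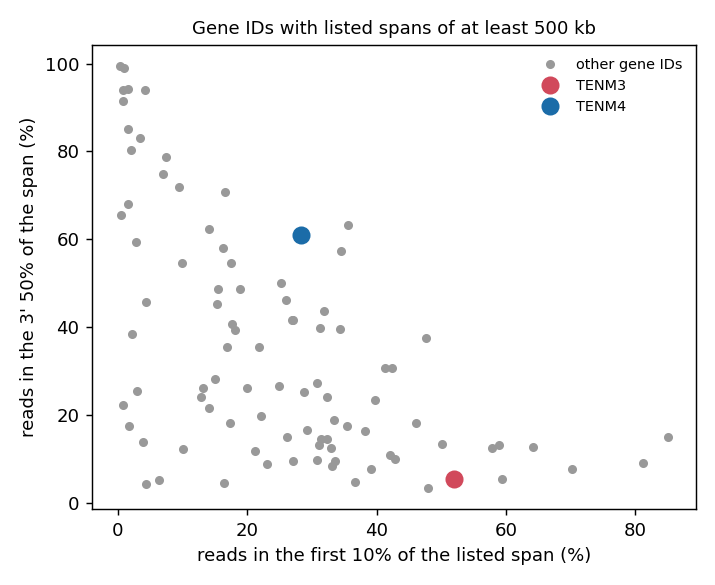
Mean percent of reads in the first 10% (horizontal axis) and in the 3' 50% (vertical axis) of the listed span for 92 gene IDs with spans of at least 500 kb and reads in all 3 replicates; each grey point is a gene ID. TENM3 lies low and to the right at 52.0% and 5.45%, and TENM4 lies at 28.3% and 61.1%.

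Overlapping positions came back more often on TENM3 than on TENM4. Overlapping peaks on the same strand were joined, per replicate into clusters and across replicates into loci. Of the 263 clusters on TENM3 in replicate 1, 80 overlapped a cluster of another replicate (30.4%, exact 95% interval 24.9 to 36.4%). Replicate 2 had 64 such clusters of 116 (55.2%, 45.7 to 64.4%), and replicate 3 had 67 of 153 (43.8%, 35.8 to 52.0%). The mean was 43.1% ± 12.4 (SD, n = 3), against 22.5% ± 11.2 for all gene IDs and 27.0% ± 11.2 for the long ones. In each replicate TENM3 lay above the long gene IDs, which had 18.9%, 39.8% and 22.3%. With only 2 replicates to compare, the mean of TENM3 was 26.5% without replicate 1, 26.9% without replicate 2 and 31.2% without replicate 3. The shares over all and long gene IDs were not computed with 2 replicates, so these means cannot be set against those above. An overlap of 1 nt was enough, and TENM3 had 532 peaks in 656 kb against 172 in 784 kb on TENM4. No random placement of peaks was drawn, so the part of peak density in the shared clusters and loci was not tested.

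On TENM4, 6 of 46 clusters overlapped another replicate in replicate 1 (13.0%, exact 95% interval 4.94 to 26.3%). Replicate 2 had 4 of 25 (16.0%, 4.54 to 36.1%), and replicate 3 had 9 of 101 (8.91%, 4.16 to 16.2%). The mean was 12.7% ± 3.56 (SD, n = 3), and each replicate lay below the long gene IDs. In replicate 1 the interval held the 18.9% of the long gene IDs, while in replicates 2 and 3 it lay below their 39.8% and 22.3%. Over all gene IDs the shares were 15.3%, 35.4% and 16.9%, of which those of replicates 1 and 2 were inside the TENM4 intervals. The median TENM4 peak had 4, 3 and 5 reads, against 6, 6 and 5 on TENM3, so its peaks were weaker in replicates 1 and 2. The part of this in the overlap was not tested.

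By locus, TENM3 had 409, of which 23 were found in all 3 replicates and 65 in exactly 2. TENM4 had 162, of which 0 were found in all 3 and 9 in exactly 2. Over all gene IDs 0.889% of 172167 loci were in all 3, and over the long gene IDs 1.45% of 21209, against 5.62% for TENM3. At such shares few of 162 loci would be in all 3, so the 0 of TENM4 does not set it apart. Loci in 2 or 3 replicates made up 21.5% for TENM3 and 5.56% for TENM4, against 8.57% over all gene IDs and 10.8% over the long ones. In replicates 1, 2 and 3, 13.6%, 24.5% and 25.9% of TENM3 reads fell in its 23 loci found in all 3. These 23 all lay within 261 kb of the 5' end of the span, and 17 in the first 10% of it. Replicates 1 and 2 shared 49 TENM3 loci, out of 260 and 112. Replicates 1 and 3 shared 51, out of 260 and 148, and replicates 2 and 3 shared 34, out of 112 and 148. On TENM4 replicates 1 and 2 shared 0 loci, out of 46 and 24. Replicates 1 and 3 shared 6, out of 46 and 101, and replicates 2 and 3 shared 3, out of 24 and 101. Loci shared by each pair were not counted over all or long gene IDs, so whether these pair counts depart from the lists in general cannot be told.

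**Figure D5:**
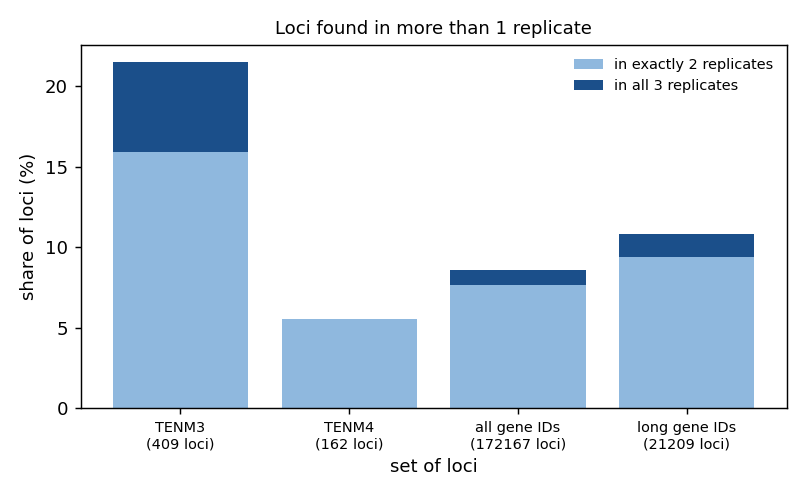
Percent of loci found in exactly 2 (light) or all 3 (dark) replicates, for TENM3 (409 loci), TENM4 (162), all gene IDs (172167) and the gene IDs with spans of at least 500 kb (21209). TENM3 has 5.62% of its loci in all 3 replicates, against 0.889% over all gene IDs and 1.45% over the long ones. TENM4 has none there, where few of 162 loci would lie at the shares of all or long gene IDs.

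The highest peak of TENM3 lay near 60 kb from the 5' end in each replicate. The densest 10 kb window was picked for the highest mean share of these same reads, so it exceeds an even spread by its choice. This window, chr4:183123912-183134009, held 10.8%, 32.6% and 16.6% of the reads of the gene, a mean of 19.98% ± 11.3 (SD, n = 3). An even spread would give 1.52%. In replicate 1 the highest peak was chr4:183127071-183127219 with 46 reads, and in replicate 2 it was chr4:183127725-183127912 with 42 reads. In replicate 3 it was chr4:183125095-183125292 with 29 reads. The highest peaks were thus within that window, which their own reads helped to pick, but they did not overlap each other. The next highest lay elsewhere in the 5' block, with 43 reads at 4.98 kb in replicate 1, 25 at 13.8 kb in replicate 2 and 22 at 37.2 kb in replicate 3. In replicate 1 a peak near 42.5 kb also had 43 reads.

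The locus with the highest mean share, chr4:183127725-183128041, was 317 nt long and had 0, 58 and 26 reads in replicates 1, 2 and 3. Its place rests on replicate 2: the mean share was 0.0201% over all 3 replicates and 0.00335% without replicate 2, when it ranked at 6. Replicate 1 had no listed peak there, although its highest peak on the gene lay just 5' of it. The next, chr4:183124849-183125292, was found in every replicate, with 14, 30 and 38 reads, and ranked at 1 without replicate 2, with 0.00585%. A neighbour at chr4:183125656-183125841 had 5, 22 and 19 reads. At these 3 loci replicate 1, the largest list, had the fewest reads.

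Other TENM3 loci had the most reads in replicate 1. The locus chr4:183133495-183133665 had 54, 6 and 11 reads, and chr4:183103473-183103666 had 33, 11 and 22. The first locus of the span, chr4:183066281-183066505, had 29, 6 and 7 reads. As shares of all listed reads replicate 1 was highest at the first of these, with 0.00734%, 0.00553% and 0.00284%, while replicate 2 was highest at the other two. The 3 loci had means of 0.00524% ± 0.00226, 0.00677% ± 0.00298 and 0.00376% ± 0.00187 (SD, n = 3).

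In the downstream block, chr4:183259323-183259496 had 9, 24 and 16 reads at 193 kb from the 5' end. At 261 kb, chr4:183326807-183327078 had 15, 5 and 16 reads, and its share was the steadiest of the 12 TENM3 loci examined singly, relative to its mean: 0.00204%, 0.00461% and 0.00413%. The other TENM3 loci among the 12 lay within 70 kb of the 5' end. Of these, chr4:183080077-183080275 had 8 and 25 reads in replicates 1 and 2 and no listed peak in replicate 3, and chr4:183080534-183080731 had 9, 11 and 7. Farther on, chr4:183121224-183121457 had 9, 11 and 14 reads and chr4:183130841-183130975 had 16, 8 and 7.

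Part of the 5' block was listed under another gene ID as well. ENSG00000248266, on the same strand, had 27, 17 and 22 peaks in replicates 1, 2 and 3, and all of them lay on TENM3 loci. They carried 308, 139 and 128 reads, and the TENM3 peaks at the same loci carried 389, 163 and 168, which are 18.3%, 19.9% and 17.1% of the reads of TENM3. No pair had identical coordinates, and the files do not say how a read was divided between overlapping IDs, so the reads there cannot be assigned to 1 gene. Without peaks that overlapped a peak of another ID, the mean share of TENM3 was 0.401%.

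The strongest positions of TENM4 differed between the replicates. In replicate 1 the highest peak was chr11:78365548-78365690 with 16 reads, 783 kb from the 5' end, close to the 3' end of the span. In replicate 2 it was chr11:79112438-79112529 with 19 reads, 35.8 kb from the 5' end. In replicate 3 it was chr11:78467067-78467173 with 17 reads, at 681 kb. The densest 10 kb window, chr11:79111358-79121407, held 2.07%, 40.2% and 8.94% of the reads of the gene, a mean of 17.1% ± 20.3, so replicate 2 made up most of it.

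The 9 TENM4 loci shared by a pair of replicates fell at both ends and in the 3' part. Near the 5' end, chr11:79112421-79112598 had 24 and 14 reads in replicates 2 and 3, the highest mean share on the gene (0.00858%, or 0.00181% and rank 5 without replicate 2), and chr11:79111674-79111897 had 12 and 3. Replicate 1 had no listed peak at either. In the 3' part, chr11:78604631-78604725 had 6 and 13 reads in replicates 1 and 3, chr11:78509796-78509879 had 4 and 11, and chr11:78559550-78559652 had 8 and 8. At the far 3' end, chr11:78365548-78365692 had 16 and 4 reads in replicates 1 and 3, while replicate 2 had 13 reads at chr11:78364170-78364321 instead. The remaining 3 shared loci had 3 to 5 reads in each replicate where they were listed. All 3 replicates thus had a peak close to the 3' end of the span, at positions that were not common to all. The remaining pair among the 5 strongest TENM4 loci by mean share, chr11:78366390-78366507 and chr11:79133230-79133308, had 6 reads each in replicate 2 and no listed peak in the others.

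Peaks on TENM3 were of a size usual for the lists in width and above it in reads. Their median width was 83, 83 and 73 nt, against 79, 72 and 69 nt over all peaks, and their median reads were 6, 6 and 5, against 5, 4 and 4. TENM4 peaks had a median width of 77.5, 64 and 67 nt. The running number in the names of peaks reached 418, 255 and 362 on TENM3, so that 62.9%, 45.5% and 42.3% of the numbers had a listed peak. On TENM4 it reached 161, 92 and 312, with 28.6%, 27.2% and 32.4% listed, against 45.6%, 39.8% and 47.4% over all gene IDs. A smaller part of the numbers was thus listed on TENM4 than over all gene IDs in each replicate.

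The gene IDs whose profile was most like that of each teneurin were found by Pearson's r over 30 values, the percent of reads in each 10% step of the span in each of 3 replicates, among 2011 other gene IDs with at least 20 loci. These values share libraries and sum to a constant within a replicate, and r is a description. For TENM3 they were ENSG00000185760 (r = 0.95, a span of 510 kb, 48.0% of reads in the first 10%) and ENSG00000259316 (r = 0.94, 175 kb, 71.3%). For TENM4 they were ENSG00000112159 (r = 0.87, 175 kb, 39.8% in the first and 19.6% in the last 10%) and ENSG00000048649 (r = 0.78, 160 kb, 47.0% and 18.8%). The profiles of TENM3 and TENM4 correlated with r = 0.45. The files do not pair these IDs with names.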

How the data were processed

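Each replicate has 1 peak list with 8 columns and no header. Per the submitters' processing notes the build was hg19, and FastQC, STAR, SAMtools and bedtools were used. Which caller and annotation were applied is not given in the sources used here. P-values are the authors' and were kept as deposited. The last number of a peak name was read as its reads, since it fell with the p-value (Spearman -0.988, -0.973 and -0.964 across peaks). No source states this. The list of replicate 1 was named with another set of ID versions: 53.5% of IDs shared with replicate 2 had the same version, against 100% between replicates 2 and 3, and TENM4 was version 1 in replicate 1 and 10 in the others.

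A peak belonged to a gene by its ID and to a 10% step of the span by its middle. Where 2 IDs shared a locus, the higher of their read sums was used for it. Analyses used Python 3.11.15, pandas 2.3.3, scipy 1.17.1 and statsmodels 0.14.6. The end test took gene IDs with at least 5 loci and 10 reads in both ends together, and was tested on simulated data. Loci named singly were the 5 of highest mean share per gene and up to 10 in all 3 replicates. The 7 other TENM4 loci shared by a pair of replicates, of which 4 are given with their values, were added after their values had been seen. The members and lists were chosen with earlier results of these data known. Since 0 of 13356 IDs matched a name in the reference table and no hg19 sequence was used, partner genes, markers of the cell line, exons, motifs and sequences were not analysed here. Alternatives covered weights, filters, windows, overlap and left-out replicates. Leaving out replicates at the strongest locus of each gene was added after seeing the data.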

Additional observations from a re-analysis of the deposited data

How the results depend on the processing

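Of 110 alternative values, 90 moved by less than 1 SD of the replicates (counts by at most 1.5 times) or kept their call. Leaving out 1 of 3 replicates cannot move a plain mean over them by 1 SD. For the member shares and the strongest loci that outcome was thus set in advance, and the count of 90 is no measure of stability. The mean share of the strongest TENM3 locus fell from 0.0201% to 0.00335% without replicate 2 and still counted as unmoved. The end ratio of TENM4 changed sign with the outer 20% of the span (0.35) and ranged from -0.71 to -0.11 with 1 replicate left out. That of TENM3 stayed called under every alternative run, and was -3.78 without replicate 1, whose peaks alone set the last 10% of the full span. The densest window of TENM3 held 42.0% at 50 kb. Loci of TENM3 in all 3 replicates numbered 13 when peaks above the median p were dropped and 15 with peaks of at least 5 reads. With 1 replicate left out, 32 to 50 TENM3 loci and 0 to 6 TENM4 loci were in both others. Over the same settings the density of TENM3 ranged from 0.413 to 1.27% per Mb, its first 10% from 24.7 to 54.6%, and its clusters shared from 26.5 to 31.2%. For TENM4 the clusters shared ranged from 0 to 9.49%. Shared loci and clusters over all gene IDs were not computed with 1 replicate left out, so these values have no background. The high density and the low share in the first 10% of TENM3 come without replicate 1, whose peaks set the length of the span. Gene IDs called at the 5' and 3' end numbered 900 and 1158. They were 590 and 734 without peaks above the median p, 225 and 218 with peaks counted, and 540 to 1051 and 617 to 1171 with 1 replicate left out. Depth of sequencing was not known, and TENM4 in replicate 2 rests on 127 reads. No paired analysis was possible because the study has 1 group.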
